A study of Rattus norvegicus with 6 samples.

Results

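Troponin is the calcium switch of the thin filament, and its slow and fast forms were followed here in a rat muscle whose nerve had been cut and repaired. The genes were taken by name: Tnnc1, Tnni1 and Tnnt1 for the slow form and Tnnc2, Tnni2 and Tnnt3 for the fast form. All probe sets annotated with 1 of these symbols alone were used, which gave 6 genes with 7 probe sets, 4 slow and 3 fast, of 15923 probe sets on the array. Tnni1 had 2 probe sets and each other gene had 1. The muscle was the tibialis anterior of 3 male Wistar rats. Their age was labelled as 8 weeks, and it is not assigned here to the operation or to the taking of the muscle. In each rat the peroneal nerve, which supplies this muscle, was severed and its end attached by suture to the biceps femoris. The nerve stumps were rejoined 4 weeks later, and survival was 8 weeks. Total RNA of the operated side (ipsilateral) and of the opposite side (contralateral) was hybridised to 1 array each, which gave 6 libraries in 3 pairs from animals 4, 5 and 6. The controls are the other legs of the operated rats, which received the same ketamine and xylazine anaesthesia, and not legs of untouched rats. The labels hold no measure of how far the muscle was reinnervated.

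Troponin sits on actin and tropomyosin and has 3 subunits. Troponin C binds calcium, troponin I holds the filament in its inhibited state, and troponin T anchors the complex to tropomyosin. Slow and fast fibres use products of different genes for each subunit, and the choice follows the pattern of nerve activity. Rat tibialis anterior is a predominantly fast muscle. Slow troponin C is also the troponin C of the heart.

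The slow troponins were higher on the ipsilateral side and the fast troponins differed by less, with intervals that included 0. On the mean of 3 animals, Tnnc1 was 1.89-fold, Tnni1 2.38-fold and Tnnt1 2.5-fold higher. Tnnc2, Tnni2 and Tnnt3 were 1.13-fold, 1.2-fold and 1.16-fold lower. The slow over fast ratio of every subunit was higher ipsilaterally in each of the 3 animals. The size depended on the animal, with the largest difference in animal 5 and the smallest in animal 4 for all 3 ratios. No troponin probe set passed the threshold after adjustment over all probe sets, so the values below describe measured differences.

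The 250 bases before the start of transcription are shown for the 4 members for which RefSeq gave a sequence (build GRCr8). Their part in the measured differences was not tested. Tnnc1 and Tnnt3 had no entry. Capitals mark matches, on either strand, to CANNTG (E-box, bound by myogenic factors such as MyoD), CATTCC (MCAT, bound by TEAD factors), TATAAA (the box bound by the general transcription machinery), GGGCGG (the box bound by Sp1) and TATTTA (a core found in MEF2 sites). No match overlapped another in these windows.
Tnni1, slow, chr13:49781279-49781528, plus strand: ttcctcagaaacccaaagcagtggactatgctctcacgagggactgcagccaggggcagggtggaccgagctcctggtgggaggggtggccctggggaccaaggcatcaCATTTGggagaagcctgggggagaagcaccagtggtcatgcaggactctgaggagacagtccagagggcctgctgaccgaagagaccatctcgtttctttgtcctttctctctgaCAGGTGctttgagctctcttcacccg
Tnnt1, slow, chr1:78348785-78349034, plus strand: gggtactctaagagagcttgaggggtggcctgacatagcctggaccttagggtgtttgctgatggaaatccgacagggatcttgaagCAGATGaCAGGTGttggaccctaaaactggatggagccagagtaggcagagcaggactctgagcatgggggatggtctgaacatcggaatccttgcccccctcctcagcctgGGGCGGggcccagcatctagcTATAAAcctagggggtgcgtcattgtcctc
Tnnc2, fast, chr3:173935340-173935589, minus strand: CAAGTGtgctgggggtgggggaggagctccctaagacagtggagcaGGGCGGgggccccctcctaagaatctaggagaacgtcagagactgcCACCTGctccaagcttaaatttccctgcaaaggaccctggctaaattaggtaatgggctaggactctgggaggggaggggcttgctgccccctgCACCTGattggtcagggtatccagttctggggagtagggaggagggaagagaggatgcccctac
Tnni2, fast, chr1:207024240-207024489, plus strand: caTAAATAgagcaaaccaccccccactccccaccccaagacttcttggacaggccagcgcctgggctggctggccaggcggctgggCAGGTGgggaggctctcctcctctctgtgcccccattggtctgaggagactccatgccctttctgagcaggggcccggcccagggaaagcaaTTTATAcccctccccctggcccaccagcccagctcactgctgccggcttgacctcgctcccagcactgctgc

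E-boxes were found in both slow and both fast windows. There were 2 in Tnni1, 2 in Tnnt1, 3 in Tnnc2 and 1 in Tnni2. In Tnnt1 both lay close together, the first starting 163 and the second 156 bases before the start site. An E-box was present in 65.5% of all 33469 windows of this length in the table, so its presence does not set the troponins apart. TATAAA was found 30 bases before the start of Tnnt1 and, on the other strand, 72 bases before that of Tnni2, against 12.9% of all windows. GGGCGG was present in Tnnt1 and Tnnc2 (30.5% of all windows) and TATTTA in Tnni2 (13.4%). CATTCC was in none of the 4 windows and in 12.1% of all. These matches are letters in a window and were not tested for binding.

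All values were intensities on the array's linear scale, with the 6 arrays on a common scale (median intensity from 60.2 to 66.6). The 7 troponin probe sets were far above the limit of 42.4 under which probe sets were not tested, in every library. A difference is the log2 value of the ipsilateral minus that of the contralateral library, with 15.8 added to each intensity first, with the standard error (SE) of limma's fit over 3 pairs. That fit shares variance over all tested probe sets (7.47 prior and 2 residual degrees of freedom), so its SE and 95% intervals do not measure the spread of the 3 animals. The SD of the 3 differences was 0.52, 1.07 and 1.13 for Tnnc1, Tnni1 and Tnnt1. It was 0.23, 0.27 and 0.30 for Tnnc2, Tnni2 and Tnnt3. The highest cre spike-in control values, a mark of the hybridisation, were on the arrays of animals 5 and 6, from 2018 to 2923 as the mean of 2 probe sets, against 778 and 1073 on those of animal 4. Beta-actin measured near the 3' end over beta-actin measured in the middle, a sign of RNA quality, gave 2.77 in contralateral 4 and 2.87 in ipsilateral 6, and 1.36 to 1.68 in the other 4 libraries. The 3' and 5' ends gave 2142 and 1387 in contralateral 4, 2886 and 1863 in contralateral 5, and 2674 and 1746 in contralateral 6. In ipsilateral 6 they gave 2023 and 983. Contralateral 4 thus stood apart by its middle probe set (774) and not by its 5' end. In an unpaired fit without contralateral 4 and ipsilateral 6, chosen after seeing the data, Tnnc1, Tnni1 and Tnnt1 differed by 1.17, 1.61 and 1.59, against 0.92, 1.25 and 1.32 in the paired fit of all libraries, and none passed the adjusted threshold in either. The part of the spike-in difference was not tested.

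Tnnc1 encodes the calcium sensor of the slow form. Its intensity was 1959 in contralateral 4, 1595 in contralateral 5 and 1387 in contralateral 6, and 2598, 4385 and 2608 in the ipsilateral muscles of the same animals. Every ipsilateral value was above every contralateral one, and ipsilateral 5 stood well above the other 2. The group means were 1647 ± 289 and 3197 ± 1029 (SD, n = 3). The log2 difference was 0.92 (SE 0.19, 95% interval from 0.50 to 1.33), with 0.40, 1.45 and 0.90 in animals 4, 5 and 6. By unadjusted p it ranked 17 of 9519 tested probe sets, with a Benjamini-Hochberg adjusted p of 0.333 in limma.

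Tnni1 encodes the slow inhibitory subunit. Its brighter probe set gave 1453, 664 and 752 in contralateral 4, 5 and 6, and 1541, 3106 and 2119 in the ipsilateral muscles. The groups did not overlap, but contralateral 4 was about as high as ipsilateral 4. The means were 956 ± 432 and 2255 ± 791 (SD, n = 3). Its log2 difference was 1.25 (SE 0.31, 95% interval from 0.55 to 1.96, limma adjusted p = 0.466), with 0.08, 2.20 and 1.47 in animals 4, 5 and 6.

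The other Tnni1 probe set measured the same transcript with different probes. Its intensities were 1331, 707 and 749 contralaterally and 1278, 3158 and 1900 ipsilaterally in animals 4, 5 and 6. In animal 4 it was lower on the ipsilateral side, which made the groups overlap. This probe set differed by 1.13 on the log2 scale (SE 0.32, limma adjusted p = 0.545), with -0.06, 2.13 and 1.33 in the 3 animals. Over the 6 libraries the log2 values of both Tnni1 probe sets correlated at r = 0.99, a description of 6 libraries. Both gave their smallest difference in animal 4, where their signs differed.

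Tnnt1 encodes the slow tropomyosin-binding subunit. It was the dimmest member, at 346, 211 and 271 in contralateral 4, 5 and 6 and 430, 1299 and 610 in the ipsilateral muscles. The groups did not overlap, and ipsilateral 5 was again the highest. The means were 276 ± 67.7 and 780 ± 459 (SD, n = 3). On the log2 scale Tnnt1 differed by 1.32 (SE 0.33, 95% interval from 0.57 to 2.07, limma adjusted p = 0.472), with 0.30, 2.54 and 1.12 in animals 4, 5 and 6. Among the tested probe sets, 0.158% had a larger positive difference.

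**Figure D1:**
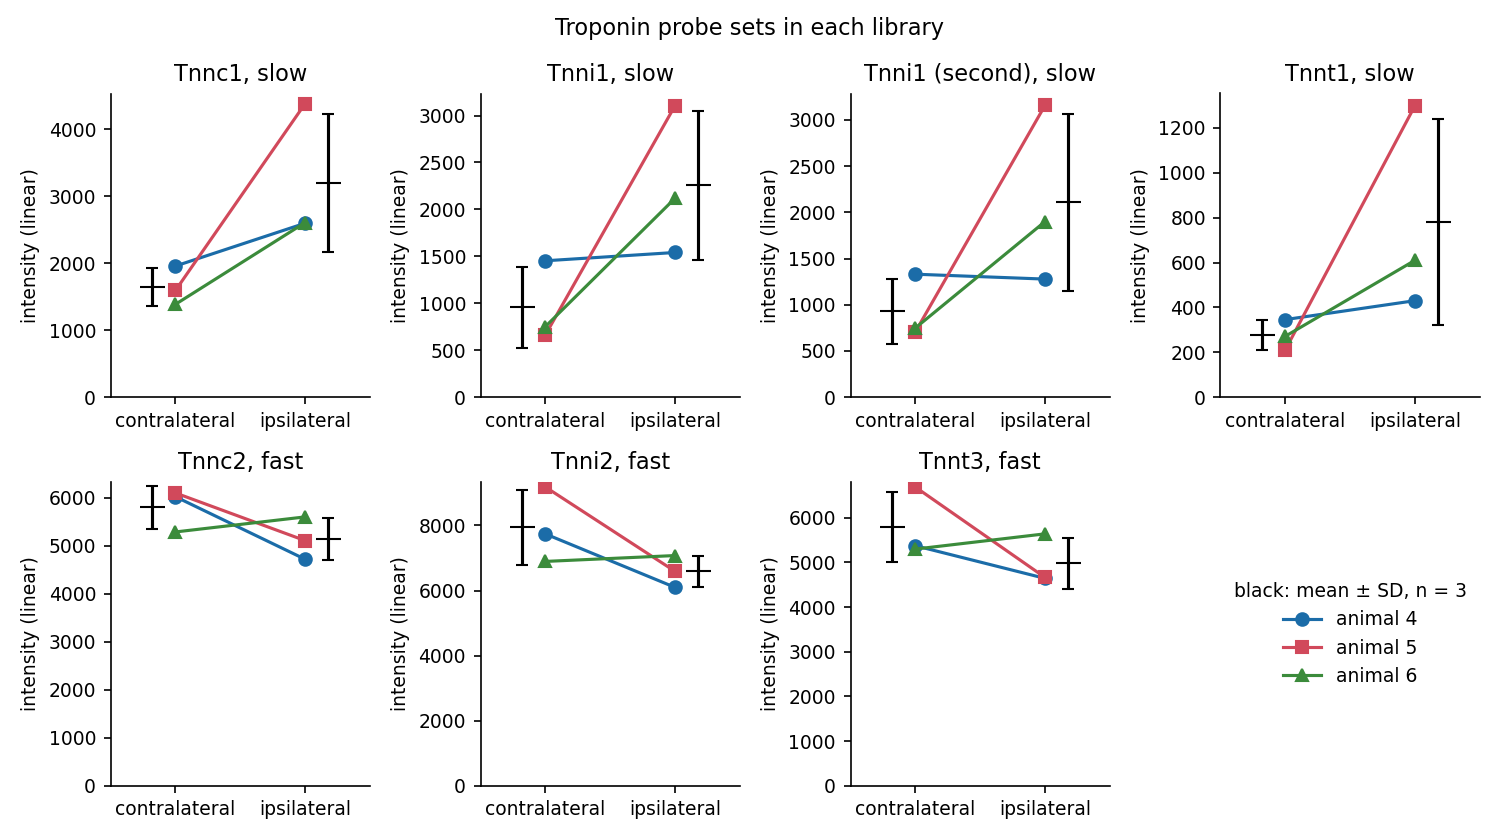
Intensity (linear scale, each axis from 0) of the 7 troponin probe sets in the contralateral and ipsilateral muscle, with lines joining the muscles of 1 animal and black bars for the mean ± SD of 3 libraries. The lines of animal 5 are steepest in the slow genes, those of animal 4 are nearly flat for Tnni1, and the fast genes decline in animals 4 and 5 but not in animal 6.

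Tnnc2 encodes the fast calcium-binding subunit. Its intensity was 6021, 6099 and 5287 in contralateral 4, 5 and 6 and 4718, 5107 and 5601 in the ipsilateral muscles. The groups overlapped, since ipsilateral 6 exceeded contralateral 6. The means were 5802 ± 448 and 5142 ± 442 (SD, n = 3). The log2 difference was -0.17 (SE 0.12, 95% interval from -0.45 to 0.10, limma adjusted p = 0.84), with -0.35, -0.26 and 0.08 in animals 4, 5 and 6.

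Tnni2 encodes the fast inhibitory subunit and had the highest mean log2 value of all non-control probe sets on the array. It gave 7738, 9181 and 6894 in contralateral 4, 5 and 6 and 6096, 6589 and 7075 in the ipsilateral muscles. The value in contralateral 5 was the highest of any probe set in any library. The means were 7938 ± 1157 and 6586 ± 489 (SD, n = 3), and the groups overlapped. On the log2 scale Tnni2 differed by -0.26 (SE 0.12, 95% interval from -0.54 to 0.02, limma adjusted p = 0.776), with -0.34, -0.48 and 0.04 in the 3 animals.

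Tnnt3 encodes the fast tropomyosin-binding subunit. It was at 5373, 6686 and 5298 in contralateral 4, 5 and 6 and at 4642, 4663 and 5639 in the ipsilateral muscles. As for the other fast subunits, ipsilateral 6 was above its contralateral partner and the groups overlapped. The means were 5786 ± 781 and 4982 ± 570 (SD, n = 3). The log2 difference was -0.21 (SE 0.13, 95% interval from -0.51 to 0.09, limma adjusted p = 0.812), with -0.21, -0.52 and 0.09 in the 3 animals.

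The fast probe sets lay at the bright end of every array, with ranks of 1, 21 and 24 from the brightest among non-control probe sets for Tnni2, Tnnc2 and Tnnt3. The slow ones ranked 253, 442, 467 and 1516. Brightness of different probe sets does not measure which transcript is more abundant, and whether the brightest probe sets were near saturation was not tested. When the arrays were quantile normalized, the differences of Tnnc2, Tnni2 and Tnnt3 were -0.03, -0.03 and -0.08, while those of Tnnc1, Tnni1 and Tnnt1 were 0.94, 1.24 and 1.31. The small negative fast differences thus depended on the scaling of the arrays in size, though not in sign.

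**Figure D2:**
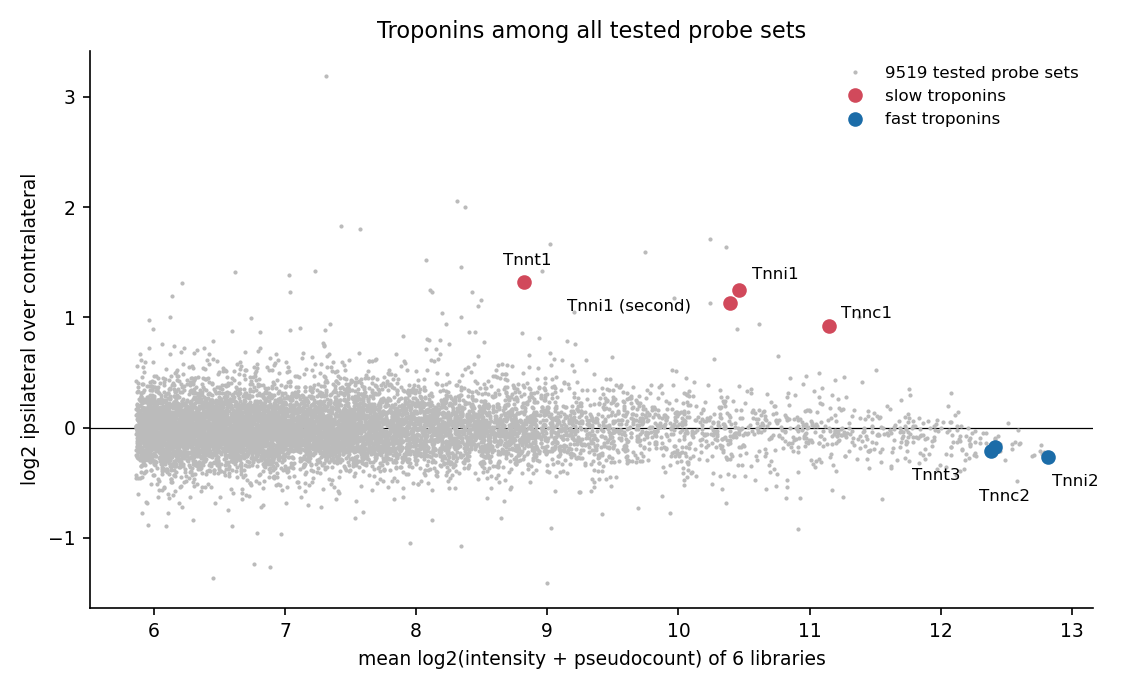
Log2 difference between ipsilateral and contralateral muscle (vertical) against mean log2(intensity + 15.8) of the 6 libraries (horizontal) for the 9519 tested probe sets in grey, the slow troponins in red and the fast troponins in blue. The slow members lie between 0.92 and 1.32 at high brightness, and the fast members lie at the right edge, between -0.26 and -0.17.

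All 7 troponin probe sets passed the filter on dim probe sets. At a limma adjusted p under 0.05, 0 of 7 were called, as were 0% of the 9519 tested probe sets, for which the lowest adjusted p was 0.2 and 605 had an unadjusted p under 0.05. At that unadjusted level 4 of 7 were higher, all slow, where 3.57% of tested probe sets were called, and 0 of 7 were lower, where 2.78% were. In all 3 animals, 3 of 7 were higher, 1 for each slow gene (12.3% of tested probe sets), and 0 of 7 were lower (15.1%). The groups did not overlap, with the ipsilateral side higher, for the same 3 probe sets (4.74%), and none did so with it lower (5.78%). The median log2 difference of the 3 slow genes was 1.25 and that of the 3 fast genes -0.21, against -0.02 for all tested probe sets. Per animal, the slow median was 0.30, 2.20 and 1.12, and the fast median was -0.34, -0.48 and 0.08, in animals 4, 5 and 6.

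Animal 4 decided whether single troponins passed. Without it, all 4 slow probe sets had a limma adjusted p under 0.05: 0.00339 for Tnnc1, 0.000458 and 0.000791 for Tnni1 and 0.00453 for Tnnt1. The differences of Tnnc1, Tnni1 and Tnnt1 were then 1.18, 1.84 and 1.83, and that of the second Tnni1 probe set was 1.73. In that fit 2.53% of tested probe sets were called, and only 1 residual degree of freedom was left. Without animal 5 the differences of Tnnc1, Tnni1 and Tnnt1 shrank to 0.65, 0.78 and 0.71 and that of the second Tnni1 probe set to 0.63, and without animal 6 they were 0.93, 1.14 and 1.42. Neither of these fits called a troponin. Without animal 6 the fast differences were -0.30 for Tnnc2, -0.41 for Tnni2 and -0.36 for Tnnt3, and without animal 5 they were -0.13, -0.15 and -0.06. Without animal 4 that of Tnnc2 was -0.09.

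**Figure D3:**
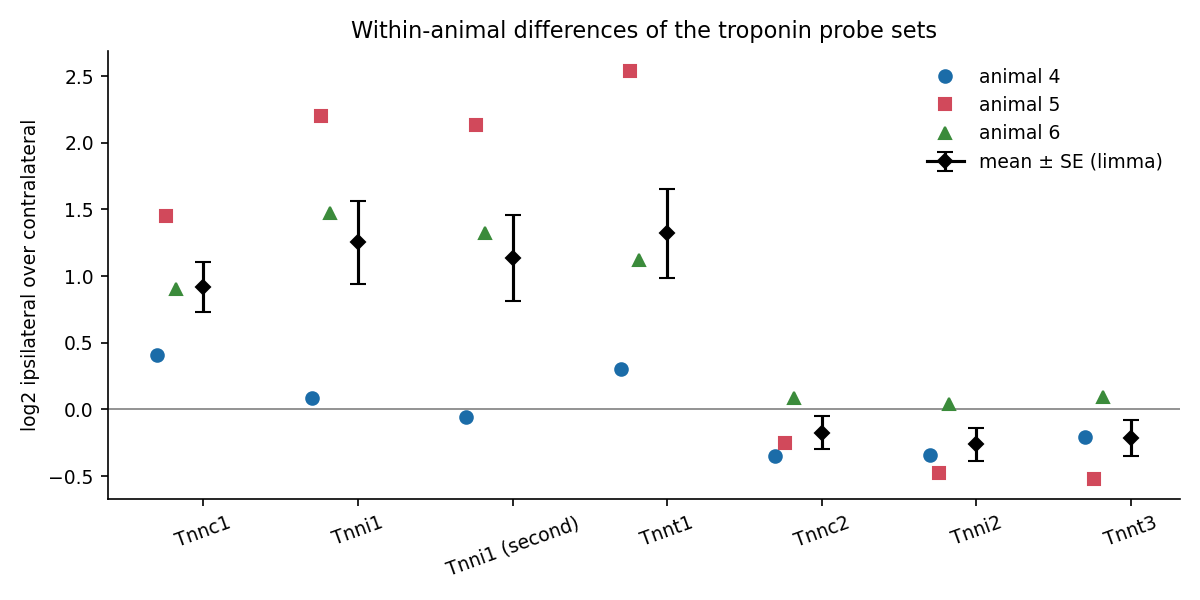
Log2 ipsilateral over contralateral intensity of each troponin probe set in animals 4, 5 and 6 (coloured symbols) with the mean and SE of limma's paired fit (black). In the slow genes animal 5 lies highest, animal 6 in between and animal 4 lowest, and in the fast genes animal 6 lies just above 0 and animals 4 and 5 below it.

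The slow over fast ratio of each subunit was taken within each library, with the brighter Tnni1 probe set, so that a common scale factor of an array cancels. Since probe sets differ in brightness for the same amount of RNA, the ratio does not count molecules and can be compared only between libraries. For troponin C, Tnnc1 over Tnnc2 was 0.325, 0.262 and 0.262 in contralateral 4, 5 and 6 and 0.551, 0.859 and 0.466 in the ipsilateral muscles. For troponin I, Tnni1 over Tnni2 was 0.188, 0.0723 and 0.109 contralaterally and 0.253, 0.471 and 0.300 ipsilaterally. For troponin T, Tnnt1 over Tnnt3 was 0.0644, 0.0315 and 0.0512 contralaterally and 0.0927, 0.279 and 0.108 ipsilaterally. In all 3 subunits each ipsilateral ratio exceeded each contralateral one. Animal 4 had the highest contralateral ratio and animal 5 the highest ipsilateral ratio in each.

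On the log2 scale, with 15.8 added to each intensity, the troponin C ratio was higher by 1.09 ± 0.53 (SD over 3 animals), with 0.76, 1.71 and 0.82 in animals 4, 5 and 6. The troponin I ratio was higher by 1.51 ± 1.13, with 0.43, 2.68 and 1.44. The troponin T ratio was higher by 1.53 ± 1.34, with 0.51, 3.06 and 1.03. These are 1.69-fold, 3.26-fold and 1.77-fold for troponin C, 1.35-fold, 6.40-fold and 2.71-fold for troponin I and 1.43-fold, 8.31-fold and 2.05-fold for troponin T. A paired exact permutation test of 3 animals cannot give a two-sided p below 0.25, so the ratios were left without a test. Without animal 5 the mean differences were 0.79, 0.93 and 0.77 for troponin C, I and T.

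Most of each ratio's difference came from the slow gene. The slow gene made up 84.1% of the troponin C, 82.7% of the troponin I and 86.1% of the troponin T difference on the log2 scale, and the fast gene the rest. In animal 4 this was otherwise for troponin I: Tnni1 differed by 0.08 and Tnni2 by -0.34. In animal 6 the fast genes differed in the same direction as the slow ones. The split between slow and fast gene also depended on the scaling of the arrays. With quantile normalization the troponin C, I and T ratios were higher by 0.97, 1.28 and 1.39. The fast genes Tnnc2, Tnni2 and Tnnt3 then differed by only -0.03, -0.03 and -0.08.

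**Figure D4:**
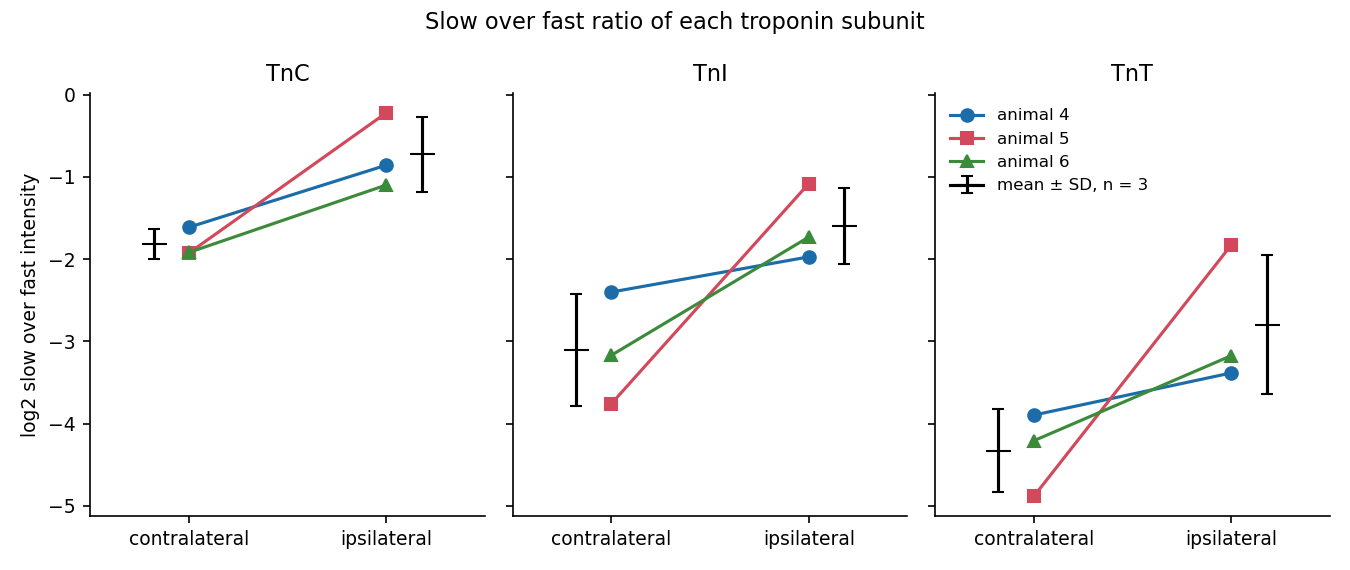
Log2 of slow over fast intensity, after adding 15.8, for troponin C, I and T (panels) in the contralateral and ipsilateral muscle of each animal, with black bars for mean ± SD of 3 libraries. Every line goes up from the contralateral to the ipsilateral side, that of animal 5 most steeply, and in no panel do the groups overlap.

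The subunits of one form differed in size but not beyond the spread over animals. Tnnc1 minus Tnni1 was -0.33 ± 0.57 on the log2 difference (SD, n = 3), Tnnc1 minus Tnnt1 was -0.40 ± 0.62 and Tnni1 minus Tnnt1 was -0.07 ± 0.37. From the largest, the order was Tnnt1, Tnni1, Tnnc1 in animal 5. It was Tnni1, Tnnt1, Tnnc1 in animal 6, but Tnnc1, Tnnt1, Tnni1 in animal 4. The fast subunits lay closer together, with differences between them of 0.09 ± 0.12 (Tnnc2 minus Tnni2), 0.04 ± 0.21 (Tnnc2 minus Tnnt3) and -0.05 ± 0.09 (Tnni2 minus Tnnt3). Over the 6 libraries the log2 values of the slow genes correlated with each other at r = 0.94 to 0.96 and those of the fast genes at 0.84 to 0.93. A slow and a fast gene correlated at -0.39 to -0.65. All members share the same 6 arrays, so these are descriptions.

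The genes most like the slow troponins, by Pearson r over the 6 libraries with their mean log2 value, were Wsb2, the transferrin receptor Tfrc, Gipc2, Ccn2 (connective tissue growth factor) and the lipid droplet protein Cidea, at r = 0.98 to 0.99. Of 7111 other tested genes, 106 had an r above 0.9. The genes most like the fast troponins were the mitochondrial ADP/ATP carrier Slc25a4, Numb, the cytochrome oxidase subunit Cox8b, the muscle creatine kinase Ckm and the ATP synthase subunit Atp5f1e, at 0.98 to 0.99, and 75 genes had an r above 0.9. Ckm, for example, was at 7018, 8247 and 6713 contralaterally and 5877, 5958 and 6663 ipsilaterally in animals 4, 5 and 6. Its order among the 6 libraries was close to that of Tnni2, with contralateral 5 highest. Slc25a4, Cox8b, Ckm and Atp5f1e were bright probe sets, as the fast troponins were, while Numb lay between 43.0 and 72.3. The part of array scaling in this likeness was not tested.

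Troponin T binds tropomyosin, and the slow tropomyosin gene Tpm3 is the thin filament partner of the slow form. Tpm3 was at 264, 113 and 151 in contralateral 4, 5 and 6 and at 209, 877 and 372 in the ipsilateral muscles. Its log2 difference was 1.23 (SE 0.44, limma adjusted p = 0.671), with -0.32 in animal 4. Of the 20 thin filament genes listed, 16 were on the array and tested, 0 had an adjusted p under 0.05, and 3 were higher and 1 lower at an unadjusted p under 0.05, where 3.57% and 2.78% of all tested probe sets were. The median was 0.04. The fast alpha-actinin Actn3, a Z-disc protein that anchors actin, differed by -0.48 (SE 0.13), the actin-binding protein Xirp1 by 0.53 (SE 0.18) and the alpha-actinin Actn2 by 0.50 (SE 0.19), of which Actn2 was at -0.14 in animal 4. Skeletal actin, Acta1, differed by -0.19 (SE 0.13).

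Other proteins of slow and fast fibres were set beside the troponins. Of 12 slow-fibre partners 9 were tested, 0 passed the adjusted threshold, and 6 were higher and 0 lower at an unadjusted p under 0.05 (3.57% and 2.78% of all tested probe sets), with a median of 0.89. Their medians were -0.01, 1.5 and 1.06 in animals 4, 5 and 6. Myl2, the slow regulatory myosin light chain and the list member with the smallest p, was at 2453, 1692 and 1539 contralaterally and 3316, 4823 and 3291 ipsilaterally. Its groups did not overlap, and it differed by 1.01 (SE 0.19, limma adjusted p = 0.312), with 0.43 in animal 4. The slow myosin heavy chain Myh7 was at 872, 424 and 755 contralaterally and 1213, 3474 and 2444 ipsilaterally. Myh7 had the same order of animals as the slow troponins, with differences of 0.47, 2.99 and 1.67. Casq2, the slow and cardiac calsequestrin, differed by 1.04 (SE 0.26) and Atp2a2, the slow calcium pump, by 0.89 (SE 0.26). The groups of Atp2a2 overlapped, with a difference of -0.01 in animal 4. Other list members differed little, such as Mb by -0.10 (SE 0.13) and Mybpc1 by 0.12 (SE 0.13). Tpm3 and Actn2 of this list, and Actn3 of the fast-fibre list below, were also counted among the thin filament genes.

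Of 12 fast-fibre partners 11 were tested and 0 passed the adjusted threshold. At an unadjusted p under 0.05, 0 were higher and 3 lower (3.57% and 2.78% of all tested probe sets), and the median was -0.25. Myh4, the type IIb fast myosin heavy chain, was at 2751, 2421 and 2752 contralaterally and 2233, 1016 and 1179 ipsilaterally, without overlap. In animal 6 its difference was -1.21, where the 3 fast troponins were between 0.04 and 0.09. The calcium pump Atp2a1 of fast fibres differed by -0.29 (SE 0.13) and the fast form of myosin-binding protein C, Mybpc2, by -0.39 (SE 0.13). The other fast myosin heavy chains did not share the sign of Myh4 on average: Myh2 (type IIa) differed by 0.31 (SE 0.15), with -0.12, 0.44 and 0.62 in animals 4, 5 and 6, and Myh1 (type IIx) by 0.21 (SE 0.14), with 0.52, 0.16 and -0.05. Whether the Myh1 probe set also measured transcripts of related myosin genes was not tested. The calcium release channel Ryr1 was higher in all 3 animals, by 0.24 (SE 0.13), and Casq1, the fast calsequestrin, by 0.06 (SE 0.12).

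**Figure D5:**
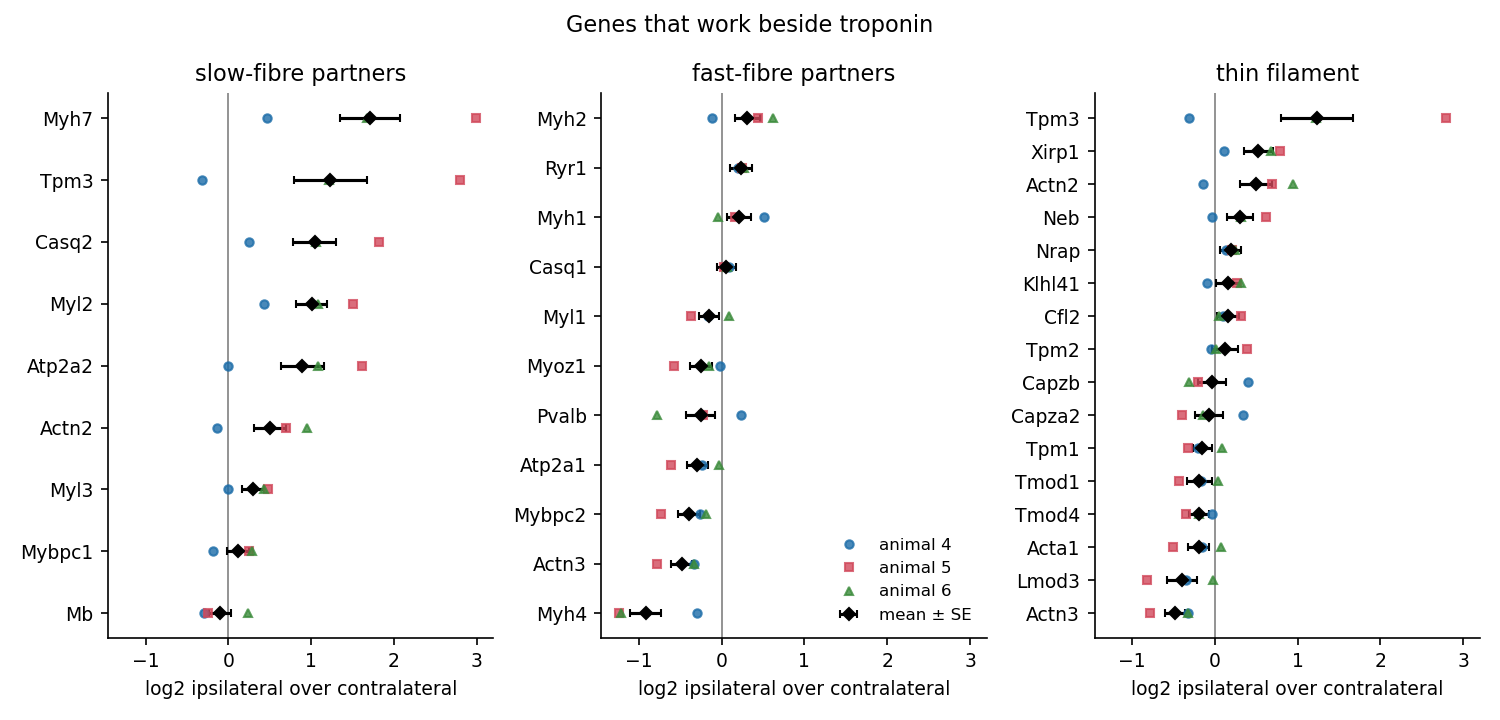
Log2 ipsilateral over contralateral intensity of tested slow-fibre partners, fast-fibre partners and thin filament genes in animals 4, 5 and 6 (coloured symbols) with the mean and SE of limma's fit (black). Myh7 and Tpm3 lie furthest to the right and Myh4 furthest to the left, and for the slow-fibre partners animal 4 lies on both sides of 0, from -0.32 to 0.47.

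Transcription factors known to act on fibre-type genes were tested for 12 of 22 listed. At an unadjusted p under 0.05, 1 was higher and 1 lower (3.57% and 2.78% of all tested probe sets), 0 passed the adjusted threshold, and the median was -0.02. Sox6, a repressor of slow-fibre genes, was at 138, 123 and 78.5 contralaterally and 114, 71.9 and 46.6 ipsilaterally. It was lower on the ipsilateral side in each animal, but the groups overlapped (log2 difference -0.50, SE 0.16, limma adjusted p = 0.586). Prox1, a factor of slow fibres, was at 29.3, 40.1 and 38.2 contralaterally and 44.2, 71.0 and 51.7 ipsilaterally. Its groups did not overlap, as for 4.74% of tested probe sets with the ipsilateral side higher, and its log2 difference was 0.46 (SE 0.17, limma adjusted p = 0.73). All its contralateral values lay under the limit of 42.4, so Prox1 was tested through its ipsilateral values.

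The heart forms of troponin were dim, with 16.8% of non-control probe sets dimmer than Tnni3 and 33.8% dimmer than Tnnt2. Tnni3, the cardiac inhibitory subunit, ranged from 6.5 to 13.0 contralaterally and from 9.4 to 24.3 ipsilaterally, and Tnnt2, the cardiac tropomyosin-binding subunit, from 28.0 to 45.2 and from 23.0 to 38.9. Both were below the filter and not tested, although Tnni3 is the direct neighbour of Tnnt1 in the GRCr8 gene table. All 6 of 6 cardiac markers were below the filter, with a summed intensity of 80.8 to 115 contralaterally and 94.6 to 110 ipsilaterally.

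Markers of the labelled tissue were bright, and those of other cells differed as well. The 9 of 10 skeletal fibre markers on the array, which include the 3 fast troponins and Myh4, summed to 46978 to 53989 contralaterally and 39069 to 42471 ipsilaterally. Macrophage and immune markers (6 of 8 on the array) summed to 3815 to 4058 and 2637 to 3659, and Schwann cell markers (5 of 7) to 663 to 793 and 864 to 935. Adipocyte markers (5 of 7) summed to 1100 to 1706 and 1519 to 2398, and fibroblast and tendon markers (5 of 6) to 4150 to 4639 and 4081 to 5044. Endothelial markers (4 of 6) summed to 386 to 490 and 469 to 673, and smooth muscle markers (4 of 4) to 428 to 680 and 431 to 501. Spermatid markers (4 of 4), genes of developing sperm, summed to 86.1 to 284 contralaterally and 171 to 964 ipsilaterally, the highest in ipsilateral 4. All 3 tested spermatid markers were higher in all 3 animals (12.3% of all tested probe sets) and at an unadjusted p under 0.05 (3.57%), with a median of 1.31. Prm2 was below the filter. Tnp1 and Odf1 had mean contralateral intensities of 34.8 and 31.6, under the limit of 42.4, so they were tested through their ipsilateral values. For Tnp1 and Prm1 the groups overlapped. Tnp1, which packs sperm DNA, had the smallest p of all 9519 tested probe sets (log2 difference 1.31, SE 0.18, limma adjusted p = 0.2), with 1.61, 0.98 and 1.34 in animals 4, 5 and 6. The order of animals was not shared by the spermatid markers, since Odf1 differed by 1.19, 1.30 and 0.44 and Prm1 by 1.73, 0.28 and 2.26. The slow troponins had their smallest differences in animal 4 and their largest, as Odf1 did, in animal 5. In an unpaired fit without ipsilateral 4, chosen after seeing the data, Tnnc1 and Tnnt1 differed by 1.05 and 1.66. No marker of these lists was listed at 0 in any library, but 1 adipocyte and 1 Schwann cell marker were at or under 15.8 in all 6. The fibre, immune and Schwann cell sums did not overlap between the groups. Of single tested probe sets, 4.74% were higher and 5.78% lower without overlap. A sum is carried by its brightest markers, so the tested markers are counted too, at an unadjusted p under 0.05 and with 0 passing the adjusted threshold in any of these lists. Among all tested probe sets 3.57% were higher and 2.78% lower at that level, and 12.3% were higher in all 3 animals. Of 3 Schwann cell markers, Pmp22 was higher (0.40, SE 0.15) and Mbp lower (-0.38, SE 0.16). Of 5 fibroblast and tendon markers 3 were higher and 0 lower, with a median of 0.39, and 4 were higher in all 3 animals, while the brightest, Dcn, differed by -0.21. Of 3 adipocyte markers 2 were higher and 0 lower (median 0.52), and of 6 immune markers 0 were higher and 3 lower (median -0.34). Of 9 fibre markers 0 were higher and 2 lower (median -0.24), of 4 endothelial markers 1 was higher and 0 lower, and of 3 smooth muscle markers 0 were either. Their part in the troponin differences was not tested. In such whole-muscle RNA, fewer cells of a type and less RNA per cell cannot be told apart.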

How the data were processed

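Samples were grouped by title, with the mark Cont taken as contralateral, and paired by the animal number in the title, since both muscles come from 1 rat. The deposited values are linear intensities, 1 per probe set and array. The software behind them was not named in the labels. Gene symbols came from GEO's platform annotation, checked through gene IDs against the GRCr8 gene table (12754 of 12789 single-symbol probe sets matched). The 20th percentile of all values, 15.8, was added before taking log2. Array medians lay within 0.117 log2, so no further normalization was applied. After 57 control probe sets were left out, the 9519 with a mean above the 40th percentile were tested with limma 3.58.1 in R 4.3.3 (animal as block, eBayes with trend, 2 residual and 7.47 prior degrees of freedom), adjusted over all of them. The procedure was tested on simulated data. Deviations from group means correlated between muscles of 1 animal at -0.04, 0.07 and 0.13. Partner genes named are up to 4 with the smallest p in each list (of the transcription factors, 2), plus Acta1, Casq1, Mb, Mybpc1, Myh1, Myh2 and Ryr1, picked after their values were seen, as were the cell markers named. The brightest probe set stood for a gene. Promoter letters are RefSeq's. The members and lists were chosen with earlier results of these data known. The number of arrays limits the precision.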

Additional observations from a re-analysis of the deposited data

How the results depend on the processing

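The pseudocount, pairing, array normalization, dim filter, variance trend and choice of probe set were varied, and each animal was left out. The sign of each troponin difference and each slow over fast ratio was the same in all of them. Leaving out 1 animal gave 0 to 241 called probe sets in all, 0 to 4 called troponin probe sets, and 3 to 6 troponin probe sets with 1 direction in the animals left. For this last count the share of all tested probe sets was not taken. Fewer animals share a direction more easily, so its change is not a result about the troponins. Without the replicate block (an unpaired fit) 0 probe sets were called, and the adjusted p of Tnnc1 was 0.519. With complete pairs its difference, 0.92, is the same by construction. The count of probe sets with 1 direction needs the pairs and was not made in that fit. A pair of alternatives was chosen after seeing the data, both unpaired. Without contralateral 4 and ipsilateral 6, the libraries with the highest ratio of 3' to middle actin, there was 1 call over all probe sets and 0 among troponins. Without ipsilateral 4, the library with the most spermatid transcripts, there were 87 calls over all tested probe sets (9519 in the main fit). Of these, 3 were slow troponin probe sets (both of Tnni1 and that of Tnnt1).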
